A study of Mus musculus with 20 samples.

Results

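J17a and J17b are a pair of mouse lines whose codes point to JNK1 and to its alternative exon forms 7a and 7b. Their brains were compared with each other here over all expressed genes. The members were the 3 J17a libraries and the 2 J17b libraries, chosen by their genotype labels, 5 of the 20 libraries of the series. The J17a mice carried the genotype labelled J17a and the J17b mice the genotype labelled J17b, both on the strain labelled C57/Bl6J, and the study's design text describes brains of control and single isoform knockout animals kept on a normal diet. The 6 libraries of the corresponding JNK2 lines, J27a and J27b (3 each), were used for comparison. The 9 remaining libraries (wild type, J1 lf/lf and J2 lf/lf, 3 each) entered the estimate of the spread and served as a range for single genes. The labels do not spell the codes out, so whether the named exon form was removed or retained in a line is not stated, and age, sex and whether libraries came from separate animals are not given either. The p-values below therefore measure only the spread between these samples.

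JNK1, encoded by Mapk8, belongs to the c-Jun N-terminal kinases, stress-activated MAP kinases that are switched on by the kinases MKK4 and MKK7 and phosphorylate transcription factors such as Jun and ATF2 as well as cytoskeletal proteins. JNK1 and JNK2 are expressed in most tissues, whereas JNK3 (Mapk10) is enriched in the brain. In each transcript either of 2 neighbouring kinase domain exons is spliced in, never both, which gives protein forms that differ in a short stretch involved in substrate binding.

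The alternative exons of Mapk8 are printed because they are the segment by which the compared lines are named. The gene lies on chromosome 14 of mm10 (33377898 to 33447158, minus strand). In the GENCODE M21 annotation, the exon that comes earlier in the transcript spans chr14:33390673-33390744 and is used by the coding transcripts Mapk8-204 and Mapk8-205, and the later exon spans chr14:33390242-33390313 and is used by Mapk8-201 and Mapk8-203. Both are coding exons of 72 bases with 359 bases of intron between them. The sources used here do not tie the letters 7a and 7b to the earlier or the later exon. Both are written on the minus strand, 5′ to 3′, and capitals mark the positions at which they differ.
Mapk8 earlier exon: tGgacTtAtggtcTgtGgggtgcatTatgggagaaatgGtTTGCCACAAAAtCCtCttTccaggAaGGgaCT
Mapk8 later exon: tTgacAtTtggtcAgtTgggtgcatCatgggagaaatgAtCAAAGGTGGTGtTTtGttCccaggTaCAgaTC
The exons differed at 27 of 72 positions and were identical at 45 (62.5%). The deposited values are counts per gene, so exon use within Mapk8 was not analysed.

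The difference between the lines was small for most genes. Of 23845 genes in the table, 16063 passed the filter on low counts and were tested. In the edgeR quasi-likelihood test, 0 genes passed a Benjamini-Hochberg adjusted p of 0.05 (0% of those tested), and the smallest adjusted p was 0.159. At an unadjusted p under 0.05, 948 genes (5.9%) passed, against 5% that the threshold itself allows. Of these 948 genes, 457 were higher in J17a brains (2.85% of the genes tested) and 491 lower (3.06%). All 3 J17a libraries lay above both J17b libraries for 1583 genes (9.85%) and below them for 1602 genes (9.97%). The libraries of these groups allow 10 splits, so without any difference a share of about 0.1 would lie apart in each direction. Both observed shares were near that value, so separation of the groups in a single gene is weak evidence of a difference. The median absolute log2 difference was 0.11. Among the 13089 genes with a mean log2 CPM (counts scaled to library size) of at least 1, 347 differed by over 0.5 on the log2 scale and 25 by over 1. The DESeq2 Wald test on the same counts, with the same filter, called 12 genes (0.0747%), 8 higher and 4 lower in J17a brains, and limma on log2(TPM + 1) called 0 (0%). Every gene described below is therefore a ranked difference, given with its values in each library.

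The libraries held 29941793, 29214298 and 29253198 estimated counts in J17a and 22797270 and 21761943 in J17b brains. A feature of the libraries divided the J17a group. The ribosomal RNA precursor Rn45s took 0.31% to 0.68% of the counts in the libraries whose titles are numbered 1 to 10, which include J17a library 1 with 0.66%. It took 1.73% to 5.33% in those numbered 11 to 21, and within the compared groups 1.83% and 1.73% in J17a libraries 2 and 3, against 2.33% and 5.33% in J17b libraries 1 and 2. What this split of the title numbers stands for is not given. Results were therefore also computed without J17a library 1, with all other groups kept in the fit. A separate fit held the 4 J17a and J17b libraries with title numbers above 10, and it was added after seeing the data.

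Mapk8 itself was higher in J17a than in J17b brains, and the J17b libraries were the lowest of the series. Its level was 106, 116 and 106 CPM in J17a brains, against 74.6 and 79.2 CPM in J17b brains (edgeR log2 difference 0.51, SE 0.10, adjusted p = 0.159). The groups did not overlap, and both J17b libraries lay below all 15 libraries of the other genotypes, which ranged from 102 to 140.4 CPM, with a median of 112 CPM. The J17a libraries lay within that range. An exact two-sided permutation test over the 5 libraries gave p = 0.1, the smallest value that 10 splits allow. DESeq2 put the same difference at 0.51 (adjusted p = 0.00701). Without J17a library 1, edgeR gave 0.53 with the other groups kept in the fit (adjusted p = 0.178). In the fit of the 4 libraries with title numbers above 10 alone, the adjusted p was 0.0396. Per length, Mapk8 averaged 46.1 TPM in J17a and 32.6 TPM in J17b brains.

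The other JNK genes did not show a difference of this size. JNK2 (Mapk9) had 296, 308 and 323 CPM in J17a brains, against 317 and 317 CPM in J17b brains, and its log2 difference was -0.04 (SE 0.30). That SE is wide because the fit shares its spread with the J2 lf/lf libraries, in which Mapk9 ranged from 58.1 to 177 CPM. JNK3 (Mapk10) had 354, 404 and 383 CPM in J17a brains, against 369 and 366 CPM in J17b brains, a log2 difference of 0.05 (SE 0.07). For both genes the libraries of the groups overlapped. Per length, JNK1 was the least abundant of the family, since Mapk9 averaged 162 TPM in J17a and 168 TPM in J17b brains and Mapk10 averaged 126 TPM in J17a and 123 TPM in J17b brains.

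**Figure D1:**
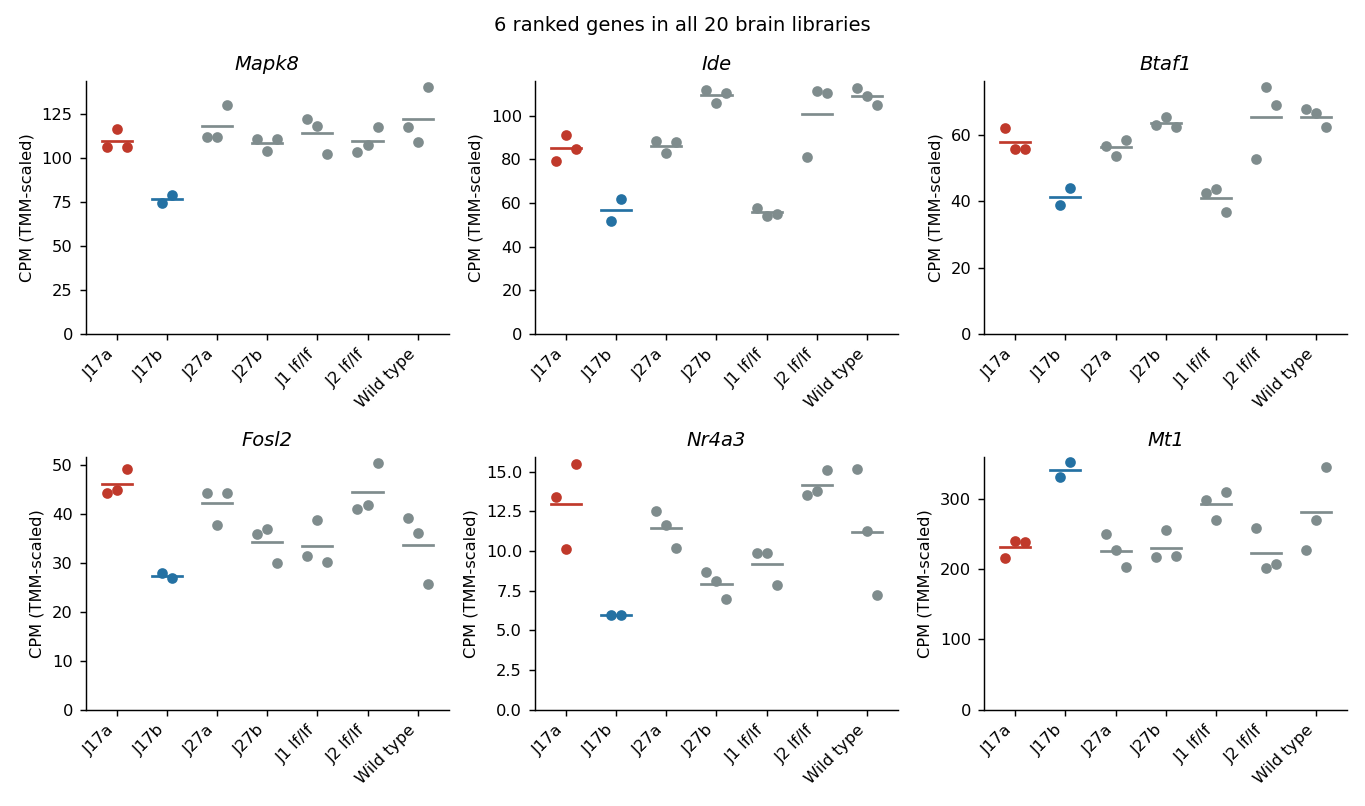
Normalised level (CPM with TMM scaling, vertical axes starting at 0) of 6 ranked genes in each of the 20 brain libraries, with the genotype groups along the horizontal axis and 1 point per library. For Mapk8 the J17b points, 74.6 and 79.2 CPM, lie below every other library, whereas for Ide the J17b and J1 lf/lf libraries are the 5 lowest.

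Few genes of the cascade around JNK passed the unadjusted threshold, which 2.85% of all genes passed as higher and 3.06% as lower. Among kinases that activate it, the MAP2K, MAP3K and MAP4K families, 12 of 20 tested genes had a positive difference, 0 of 20 passed an unadjusted p of 0.05 in either direction, and values lay between -0.15 and 0.15 on the log2 scale. Of 7 JNK scaffold genes, 4 were positive and 0 passed, with values between -0.43 and 0.14. The scaffold Mapk8ip1, also called JIP1, had 454, 378 and 426 CPM in J17a brains, against 421 and 342 CPM in J17b brains, and the groups overlapped. Of 10 MAP kinase phosphatases, which switch these kinases off, Dusp6 alone passed an unadjusted p of 0.05, and values lay between -0.25 and 0.65. This phosphatase of ERK had 55.5, 48.5 and 51.3 CPM in J17a brains, against 34.4 and 42.7 CPM in J17b brains (edgeR log2 difference 0.43, SE 0.17, adjusted p = 0.790). Without J17a library 1 no phosphatase passed, against 1219 of 16063 genes in that fit, and the result of Dusp6 also depended on J17b library 1. Of 10 ERK and p38 kinase genes, 0 passed, values lay between -0.30 and 0.53, and 3 had all J17a libraries above both J17b libraries, against 9.85% of all genes. In these genes 1 passed as lower without J17a library 1, against 4.44% of all genes in that fit, and the outcome also changed without J17b library 1. Among 15 cytoskeletal JNK substrates, 3 passed, all higher in J17a brains, namely the neurofilament genes Nefl, with a log2 difference of 0.24 (SE 0.10), and Nefm, 0.36 (SE 0.16), and the microtubule regulator Stmn1, 0.22 (SE 0.10). The libraries of the groups did not separate for most of the substrates, 1 of 15 lying apart. The substrate count was 5 of 15 higher without J17a library 1, against 3.15% of all genes in that fit. It was 1 of 15 without J17a library 2 or without J17a library 3, against 422 and 404 of 16063 genes as higher in those fits. The substrate count also fell without J17b library 2.

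The 15 genes that ranked highest in J17a brains, by p among genes with a mean log2 CPM of at least 1 and no overlap of libraries, were led by Ide, the insulin-degrading enzyme, a protease that also cleaves amyloid beta. Ide had 79.1, 91.1 and 84.9 CPM in J17a brains, against 51.9 and 61.7 CPM in J17b brains (edgeR log2 difference 0.58, SE 0.11, adjusted p = 0.159). Btaf1, an ATPase that removes the TATA-binding protein from DNA, lies on the same stretch of chromosome 19 (Ide at 37268743 to 37337852, Btaf1 at 36926079 to 37012752, mm10). It had 62.04, 55.7 and 55.5 CPM in J17a brains, against 38.8 and 43.9 CPM in J17b brains (edgeR log2 difference 0.48, SE 0.11, adjusted p = 0.352). Both genes separated the groups, which the ranking required, and the J17b values lay near those of 1 other line, J1 lf/lf. In J1 lf/lf brains Ide lay between 54.2 and 57.9 CPM and Btaf1 between 36.7 and 43.5 CPM, while in wild-type brains Ide lay between 105 and 113 CPM. Genes that lie between them had similar values in both groups. Cpeb3, which encodes an RNA-binding protein, had 126, 119.9 and 139 CPM in J17a brains, against 121 and 125 CPM in J17b brains, and the ubiquitin ligase gene March5 had 87.8, 89.1 and 86.9 CPM in J17a brains, against 91.8 and 88.02 CPM in J17b brains. Of 79 tested genes within 5 Mb of Ide, 7 passed an unadjusted p of 0.05 (8.86%, against 5.9% of all genes), among them Ifit1. Of 71 within 5 Mb of Mapk8, 6 did (8.45%), among them Galnt15 and Slc18a3. These 3 genes are described further below. As background, a segment of chromosome 19 that holds Ide and Fgfbp3 is known to vary in copy number within C57BL/6J colonies. Fgfbp3, a carrier of fibroblast growth factors, had 7.54, 5.82 and 5.42 CPM in J17a brains, against 5.29 and 5.65 CPM in J17b brains, with overlapping groups, and copy number was not tested.

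Nes, Hes5, Fgfrl1 and Spry4 were also among these 15 genes. Nestin (Nes), the intermediate filament of progenitor cells, had 12.99, 13.3 and 14.3 CPM in J17a brains, against 7.63 and 9.24 CPM in J17b brains (edgeR log2 difference 0.68, SE 0.13, adjusted p = 0.159). Both J17b libraries were below the 15 libraries of the other genotypes, which ranged from 9.32 to 14.1 CPM, with a median of 11.5 CPM. Hes5, a transcriptional repressor induced by Notch, had 9.77, 8.97 and 10.02 CPM in J17a brains, against 5.78 and 5.61 CPM in J17b brains (edgeR log2 difference 0.75, SE 0.18, adjusted p = 0.352). Fgfrl1, a fibroblast growth factor receptor without a kinase domain, had 15.9, 14.9 and 16.6 CPM in J17a brains, against 10.01 and 10.9 CPM in J17b brains (edgeR log2 difference 0.59, SE 0.13, adjusted p = 0.293), and again both J17b libraries were the lowest of the 20. Spry4, an inhibitor of receptor tyrosine kinase signalling, had 24.2, 23.2 and 24.5 CPM in J17a brains, against 11.9 and 17.6 CPM in J17b brains (edgeR log2 difference 0.70, SE 0.17, adjusted p = 0.352). These genes were present at low levels, and for each the J17a libraries lay close together.

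Fosl2, Nr4a3 and Gpr3 belonged to the same ranking. Fosl2, an AP-1 subunit of the Fos family, had 44.3, 44.8 and 49.1 CPM in J17a brains, against 27.9 and 26.9 CPM in J17b brains (edgeR log2 difference 0.75, SE 0.15, adjusted p = 0.159). The nuclear receptor Nr4a3 had 13.4, 10.1 and 15.5 CPM in J17a brains, against 5.95 and 5.94 CPM in J17b brains (edgeR log2 difference 1.13, SE 0.23, adjusted p = 0.159), the largest log2 difference among the 15. The G protein-coupled receptor Gpr3, which keeps cyclic AMP high without a ligand, had 8.44, 11.3 and 10.46 CPM in J17a brains, against 5.07 and 5.75 CPM in J17b brains (edgeR log2 difference 0.90, SE 0.21, adjusted p = 0.352). The J17b libraries were nearly equal to each other for Fosl2 and Nr4a3, and Nr4a3 was lower there than in any of the other 15 libraries. In the fit of the 4 libraries with title numbers above 10, the log2 differences were 1.10 for Nr4a3 (edgeR adjusted p = 0.0448), 0.78 for Fosl2 (edgeR adjusted p = 0.00926) and 0.63 for Ide (edgeR adjusted p = 0.0212). Without J17a library 1 but with the other groups in the fit, the edgeR adjusted p was 0.238 for Nr4a3, 0.189 for Fosl2 and 0.105 for Ide.

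The remaining genes of that ranking serve other functions. Aven, an inhibitor of apoptosis, had 8.14, 9.62 and 8.78 CPM in J17a brains, against 5.16 and 5.98 CPM in J17b brains (edgeR log2 difference 0.67, SE 0.15, adjusted p = 0.302). Ahsa2, related to the activator of the HSP90 ATPase, had 22.7, 23.7 and 21.96 CPM in J17a brains, against 17.4 and 15.8 CPM in J17b brains (edgeR log2 difference 0.46, SE 0.11, adjusted p = 0.352). Pfkfb3, which makes the activator of glycolysis fructose 2,6-bisphosphate, had 64.9, 70.5 and 71.4 CPM in J17a brains, against 50.5 and 52.3 CPM in J17b brains (edgeR log2 difference 0.42, SE 0.10, adjusted p = 0.352). For all 3 genes the J17a libraries were the higher ones without overlap, which the ranking required. The RNA polymerase III subunit Polr3d had 17.3, 18.996 and 17.8 CPM in J17a brains, against 11.02 and 13.7 CPM in J17b brains (edgeR log2 difference 0.54, SE 0.13, adjusted p = 0.395). Apln, the peptide ligand of the apelin receptor, had 36.2, 36.8 and 37.98 CPM in J17a brains, against 29.1 and 26.5 CPM in J17b brains (edgeR log2 difference 0.41, SE 0.11, adjusted p = 0.558).

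The 15 genes that ranked lowest in J17a brains were led by Fmo2, a flavin-containing monooxygenase. Fmo2 had 2.26, 3.18 and 2.20 CPM in J17a brains, against 9.79 and 5.14 CPM in J17b brains (edgeR log2 difference -1.55, SE 0.30, adjusted p = 0.159). The J17b libraries were far apart from each other here, and J1 lf/lf brains also reached 8.95 CPM. Lgals3bp, a secreted glycoprotein that binds galectin 3, had 16.3, 18.3 and 17.2 CPM in J17a brains, against 24.9 and 23.7 CPM in J17b brains (edgeR log2 difference -0.50, SE 0.10, adjusted p = 0.159), and both J17b libraries lay above the other 15, which ranged from 17.1 to 22.4 CPM, with a median of 20.7 CPM. Rbm3, an RNA-binding protein induced by cold, had 66.5, 78.4 and 62.4 CPM in J17a brains, against 92.3 and 102 CPM in J17b brains (edgeR log2 difference -0.49, SE 0.11, adjusted p = 0.268). C330027C09Rik had 2.33, 2.29 and 2.23 CPM in J17a brains, against 4.45 and 4.99 CPM in J17b brains (edgeR log2 difference -1.05, SE 0.23, adjusted p = 0.293), and it was the 1 ranked gene for which all 3 J17a libraries lay below the other 15, which started at 2.58 CPM.

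Receptors, transporters and enzymes followed among the lower genes. Notch1, the receptor upstream of Hes5, had 39.3, 37.7 and 40.9 CPM in J17a brains, against 47.2 and 53.1 CPM in J17b brains (edgeR log2 difference -0.35, SE 0.09, adjusted p = 0.558), in the opposite direction to Hes5. Plin4, a coat protein of lipid droplets, had 18.4, 11.7 and 11.9 CPM in J17a brains, against 24.7 and 40.3 CPM in J17b brains (edgeR log2 difference -1.21, SE 0.31, adjusted p = 0.572). Its J17b libraries differed widely, so that this large difference rests on a broad spread. The phospholipid flippase Atp10a had 17.6, 17.6 and 16.4 CPM in J17a brains, against 24.3 and 24.6 CPM in J17b brains (edgeR log2 difference -0.51, SE 0.13, adjusted p = 0.558). Lrrc8a, a subunit of the volume-regulated anion channel, had 68.6, 66.9 and 67.4 CPM in J17a brains, against 79.7 and 89.8 CPM in J17b brains (edgeR log2 difference -0.32, SE 0.09, adjusted p = 0.572). The groups were apart for both, which the ranking required, with the J17b libraries the higher ones. Ephx1, the microsomal epoxide hydrolase, had 24.8, 23.5 and 22.3 CPM in J17a brains, against 30.4 and 31.7 CPM in J17b brains (edgeR log2 difference -0.40, SE 0.11, adjusted p = 0.572). Galnt15, a transferase that starts O-linked glycans, had 7.38, 5.37 and 5.59 CPM in J17a brains, against 10.1 and 9.80 CPM in J17b brains (edgeR log2 difference -0.70, SE 0.18, adjusted p = 0.558), and both J17b libraries were the highest of the 20.

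The last of the lower genes were Zfp810, a zinc finger gene, with 11.3, 8.86 and 9.71 CPM in J17a brains, against 13.5 and 15.6 CPM in J17b brains, and Bbs9, a subunit of the BBSome of primary cilia, with 14.02, 13.2 and 12.4 CPM in J17a brains, against 18.8 and 18.3 CPM in J17b brains. Their log2 differences were -0.55 (SE 0.13) and -0.49 (SE 0.12). Lpp, a LIM protein of focal adhesions, had 22.6, 21.3 and 18.1 CPM in J17a brains, against 25.7 and 33.6 CPM in J17b brains, a log2 difference of -0.52 (SE 0.14). The histone gene Hist2h2aa2 had 12.6, 15.4 and 20.001 CPM in J17a brains, against 26.9 and 23.2 CPM in J17b brains, a log2 difference of -0.65 (SE 0.18). Histone genes have near-identical copies between which reads can be divided, so its value is uncertain. Mt1, the remaining member, is described below with the other metallothioneins.

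**Figure D2:**
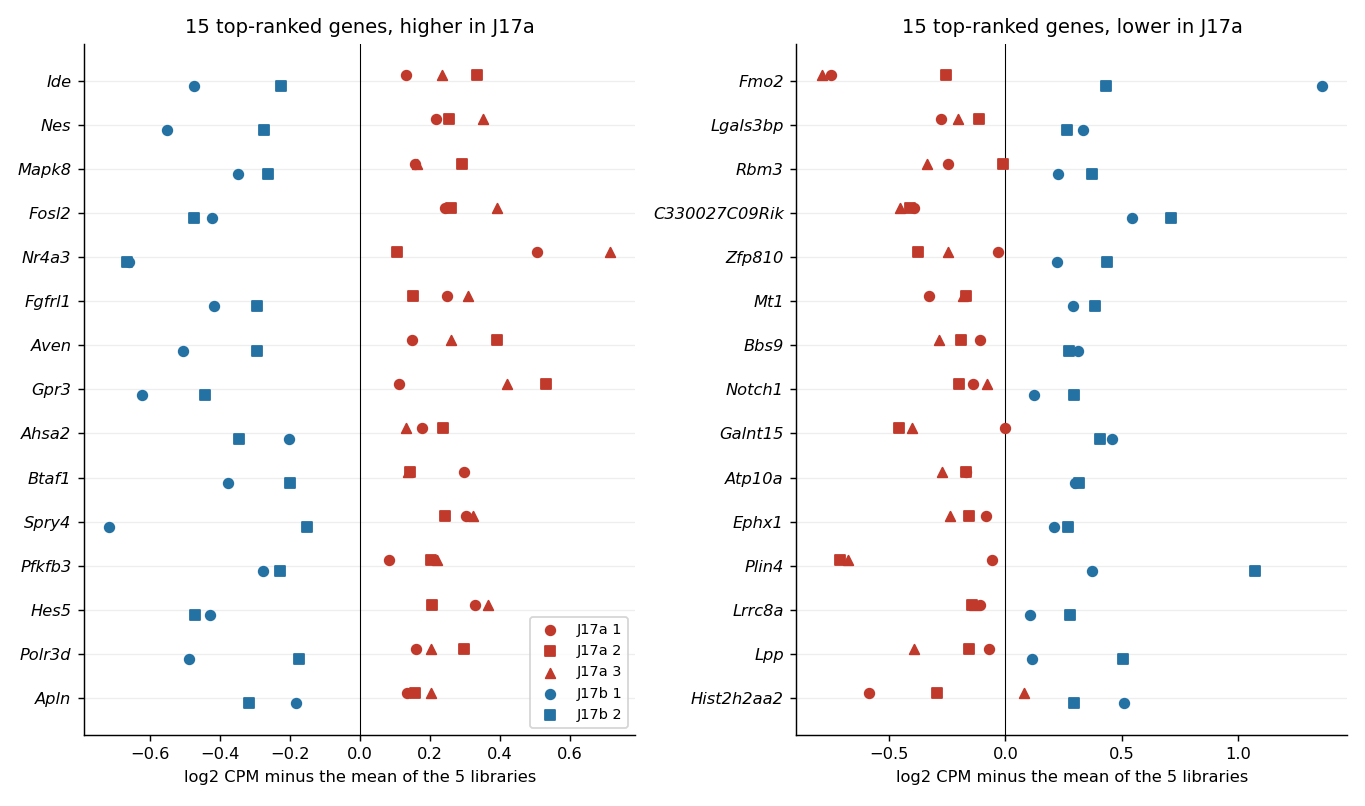
The 15 top-ranked genes in each direction (rows), with the log2 CPM of each library minus the mean of the 5 libraries on the horizontal axis and 1 point per library, by genotype. The groups do not overlap in any row, which the ranking required, and the J17b points of Fmo2 and Plin4 are the most widely spread.

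Immediate early genes, which neurons transcribe within minutes of activity, had positive differences over most of the list. Of 24 genes, all tested, 22 had a positive difference, against 50.5% of all genes. At an unadjusted p under 0.05, 12 were higher in J17a and 0 lower, against 2.85% and 3.06% of all genes, and 0 passed the adjusted p of edgeR. The libraries did not overlap for 13 of 24 genes, against 9.85% of all genes in that direction. The list's median log2 difference was 0.50, against 0.00 over all genes. Relative to each gene's median over the 20 libraries, the list's median was 0.40, -0.01 and 0.41 in J17a brains, against -0.28 and -0.17 in J17b brains. J17a library 2 thus lay near the median of the series, J17a libraries 1 and 3 above it and both J17b libraries below it. The other 15 libraries ranged from -0.37 to 0.56 on this measure, a range that holds all 5 of these values. The list was drawn up with results of these brains known. Jun, given below with the AP-1 factors, had a negative difference and was not on the list.

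Among the transcription factors of that list, Egr1 had 252, 217 and 271 CPM in J17a brains, against 143 and 144 CPM in J17b brains (edgeR log2 difference 0.78, SE 0.26, adjusted p = 0.684). Egr3 had 179, 149 and 189.6 CPM in J17a brains, against 119.9 and 102 CPM in J17b brains (edgeR log2 difference 0.64, SE 0.17, adjusted p = 0.572). Egr2, expressed at a low level, had 5.38, 4.69 and 6.38 CPM in J17a brains, against 1.54 and 3.20 CPM in J17b brains (edgeR log2 difference 1.21, SE 0.46, adjusted p = 0.731). All 3 belong to the early growth response family of zinc finger factors, and in all 3 the groups were apart. Fosb, a Fos family subunit of AP-1, had 21.1, 14.99 and 25.9 CPM in J17a brains, against 11.8 and 11.9 CPM in J17b brains (edgeR log2 difference 0.81, SE 0.24, adjusted p = 0.634). Nr4a1, a nuclear receptor of the same family as Nr4a3, had 62.5, 44.2 and 71.6 CPM in J17a brains, against 29.5 and 43.9 CPM in J17b brains (edgeR log2 difference 0.70, SE 0.28, adjusted p = 0.806). The gap between the groups was narrow in Nr4a1, where J17a library 2 and J17b library 2 lay next to each other. Klf10, a zinc finger factor induced by transforming growth factor beta, had 28.01, 25.2 and 27.5 CPM in J17a brains, against 17.9 and 17.7 CPM in J17b brains (edgeR log2 difference 0.60, SE 0.19, adjusted p = 0.634).

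Effectors of synapses and signalling were among the higher members too. Arc, which controls the removal of AMPA receptors from synapses, had 139, 137 and 175 CPM in J17a brains, against 59.8 and 93.96 CPM in J17b brains (edgeR log2 difference 0.97, SE 0.41, adjusted p = 0.818). Homer1, a postsynaptic scaffold with an activity-induced short form, had 187, 190.3 and 194 CPM in J17a brains, against 141 and 151 CPM in J17b brains (edgeR log2 difference 0.38, SE 0.11, adjusted p = 0.634). Ier5, a regulator of heat shock factor activity, had 78.6, 70.7 and 83.8 CPM in J17a brains, against 49.5 and 39.4 CPM in J17b brains (edgeR log2 difference 0.81, SE 0.33, adjusted p = 0.806). In each of them the lowest J17a library exceeded the highest J17b library. Other members did not pass the unadjusted threshold. Fos had 23.99, 16.3 and 26.3 CPM in J17a brains, against 11.9 and 20.3 CPM in J17b brains, a log2 difference of 0.47 (SE 0.49), and Npas4 one of 0.22 (SE 0.52). For Fos the groups overlapped. The members with a negative difference were Ier2 with -0.18 (SE 0.26) and Btg2 with -0.14 (SE 0.34).

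When the 5 libraries were fitted alone, edgeR called 4 genes at an adjusted p under 0.05 (0.0249% of the 16058 tested), and 3 of them were immediate early genes. Egr1 (log2 difference 0.78, adjusted p = 0.0424), Ier5 (0.81, adjusted p = 0.0494) and Fosl2 (0.75, adjusted p = 0.0494) were higher in J17a brains, and Mt2 was lower (-0.64, adjusted p = 0.0424). With the title numbers above 10 only, 2 libraries against 2, 21 of 24 members were positive, the median was 0.41 and 11 passed an unadjusted p of 0.05 as higher, against 2.66% of all genes in that fit. Markers of forebrain glutamatergic neurons, cells rich in these transcripts, summed to 4506, 4289 and 4591 CPM in J17a brains, against 4381 and 3556 CPM in J17b brains, 0 of its 12 members being at 0. Their part in the difference of the immediate early genes was not tested. In bulk tissue, fewer cells of a type and less RNA per cell cannot be told apart.

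The AP-1 and ATF factors, through which JNK is best known to act on transcription, were mostly positive. Of 14 tested genes 12 were, against 50.5% of all genes, with a median of 0.22. At an unadjusted p 2 of 14 passed as higher, against 2.85% of all genes, and these were Fosl2 and Fosb, both of which are counted above. Jun, the factor after which the kinase is named, had 56.2, 44.7 and 60.4 CPM in J17a brains, against 60.4 and 57.8 CPM in J17b brains, a log2 difference of -0.14 (SE 0.14) with overlapping groups. Atf2 differed by 0.04 (SE 0.08), Jund by 0.08 (SE 0.22) and Atf3, at a low level, by 0.25 (SE 0.58). Atf4, the factor of the integrated stress response, had 123, 127 and 121 CPM in J17a brains, against 117 and 97.6 CPM in J17b brains (edgeR log2 difference 0.20, SE 0.15, adjusted p = 0.909).

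**Figure D3:**
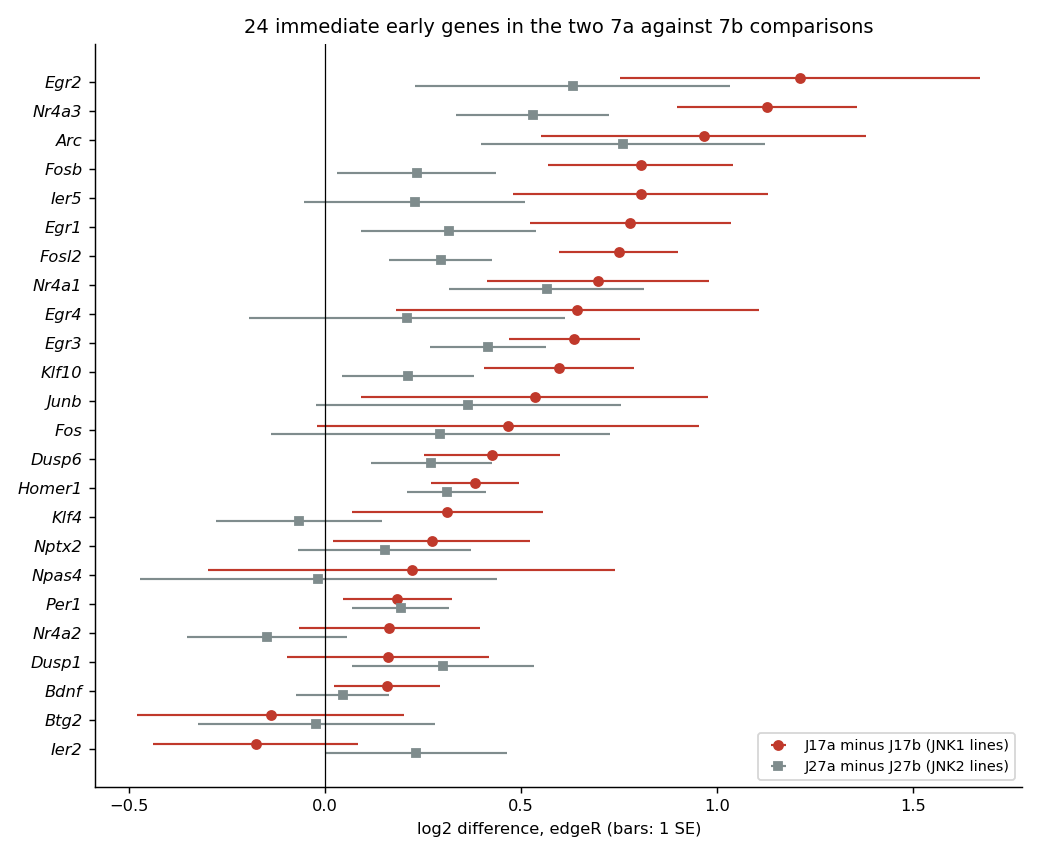
The 24 immediate early genes (rows) with their edgeR log2 difference on the horizontal axis, J17a minus J17b and, in the second colour, J27a minus J27b, with bars of 1 SE. For J17a minus J17b 22 of 24 genes lie to the right of 0, and for J27a minus J27b 20 of 24 do.

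The promoter of Nr4a3 is shown since that gene had the largest log2 difference of the early genes among the ranked genes. The RefSeq window of GRCm38.p6 spans chr4:48045055-48045354 on the plus strand, 250 bases before to 50 bases after the annotated start. Capitals mark the TGACG core of the cAMP response element on either strand.
Nr4a3 promoter: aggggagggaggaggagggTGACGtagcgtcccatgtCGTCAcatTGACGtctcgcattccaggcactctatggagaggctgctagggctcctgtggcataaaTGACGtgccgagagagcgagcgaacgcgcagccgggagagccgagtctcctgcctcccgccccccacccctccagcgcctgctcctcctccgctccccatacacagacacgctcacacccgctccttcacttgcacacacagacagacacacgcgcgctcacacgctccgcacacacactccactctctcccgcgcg
The window held 4 matches to TGACG, a core that is part of the full element TGACGTCA, and no match to the full element. Of 18 immediate early gene promoters present in the RefSeq table, 13 held the core (72.2%), against 21% of 27025 promoters of the same length. The core was searched after the full element had given no match in Nr4a3. The full element stood in 2 of 18 early gene promoters and in 1.88% of all promoters, and the AP-1 motif TGANTCA in 0 of 18 and in 7.93%. The core of the metal response element, given below for the metallothioneins, stood in 9 of 18 (50%), against 25.6% of all promoters. The core TGACG overlaps the full element wherever that occurs, and a match is a description of letters only.

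The metallothioneins, small proteins that bind zinc and copper, were lower in all J17a libraries than in the J17b libraries. Mt1 had 216, 241 and 238 CPM in J17a brains, against 331 and 353 CPM in J17b brains (edgeR log2 difference -0.56, SE 0.14, adjusted p = 0.475). Mt2 had 129.6, 139.8 and 125 CPM in J17a brains, against 206 and 203 CPM in J17b brains (edgeR log2 difference -0.64, SE 0.17, adjusted p = 0.587). Mt3, the form made mainly in the brain, had 124, 112 and 151 CPM in J17a brains, against 170.1 and 191 CPM in J17b brains (edgeR log2 difference -0.49, SE 0.23, adjusted p = 0.847). In all 3 the highest J17a library lay below the lowest J17b library, and for Mt1 and Mt2 the libraries within each group lay close together. The zinc exporter Slc30a1, a target of the same metal-sensing factor MTF1, had 49.98, 52.5 and 50.98 CPM in J17a brains, against 56.3 and 59.98 CPM in J17b brains (edgeR log2 difference -0.18, SE 0.08, adjusted p = 0.819). Of the 8 genes of metallothioneins and metal handling, 3 passed an unadjusted p of 0.05, all lower in J17a brains, against 3.06% of all genes, and the list's median log2 difference was -0.21. Mt1 averaged 232 ± 13.9 CPM in J17a (SD, n = 3) and 342 ± 15.4 CPM in J17b brains (SD, n = 2), while the other 15 libraries ranged from 202 to 347 CPM, with a median of 249.96 CPM. In the fit of the 4 libraries with title numbers above 10, the log2 differences were -0.51 for Mt1 (edgeR adjusted p = 0.0312) and -0.63 for Mt2 (edgeR adjusted p = 0.00889). Without J17a library 1 but with the other groups in the fit, the edgeR adjusted p was 0.469 for Mt1 and 0.496 for Mt2.

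Mt1 and Mt2 are neighbours on chromosome 8, and their promoters are printed since both genes differed in the same direction. The windows are chr8:94178839-94179138 for Mt1 and chr8:94172368-94172667 for Mt2, both on the plus strand and both from RefSeq on GRCm38.p6. Capitals mark the core of the metal response element, TGCACNC or TGCGCNC on either strand.
Mt1 promoter: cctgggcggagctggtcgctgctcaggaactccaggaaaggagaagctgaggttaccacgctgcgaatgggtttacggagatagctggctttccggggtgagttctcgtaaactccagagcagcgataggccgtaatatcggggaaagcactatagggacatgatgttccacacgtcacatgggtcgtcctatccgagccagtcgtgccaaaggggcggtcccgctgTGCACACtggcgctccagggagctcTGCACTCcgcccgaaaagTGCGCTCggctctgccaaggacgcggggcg
Mt2 promoter: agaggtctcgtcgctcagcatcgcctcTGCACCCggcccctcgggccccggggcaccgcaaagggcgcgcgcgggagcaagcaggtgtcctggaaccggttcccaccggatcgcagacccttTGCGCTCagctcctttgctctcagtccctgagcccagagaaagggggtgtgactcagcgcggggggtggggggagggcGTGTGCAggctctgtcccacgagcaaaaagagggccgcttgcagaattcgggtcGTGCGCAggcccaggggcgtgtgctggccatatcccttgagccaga
The core occurred 3 times in the Mt1 window and 4 times in the Mt2 window. It was present in the promoters of Mt1, Mt2 and Mt3, 3 of 3, and in 25.6% of 27025 promoters. In these windows no capital letter is also part of a TGACG match, and the presence of a core shows no binding.

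Chaperone lists had small differences, and 0 of their genes passed the adjusted p of edgeR. Of 16 endoplasmic reticulum chaperones and folding factors, 15 were positive, against 50.5% of all genes, with a median of 0.12. At an unadjusted p of 0.05, 5 passed, all higher, against 2.85% of all genes. Hspa5, the chaperone BiP, had 366, 377 and 344 CPM in J17a brains, against 297 and 291 CPM in J17b brains (edgeR log2 difference 0.30, SE 0.10, adjusted p = 0.634). Xbp1, the factor that induces such genes, had 99.3, 94.2 and 92.7 CPM in J17a brains, against 81.5 and 76.6 CPM in J17b brains (edgeR log2 difference 0.27, SE 0.09, adjusted p = 0.634). Pdia4, a disulfide isomerase, had 42.8, 42.3 and 42.7 CPM in J17a brains, against 35.8 and 35.4 CPM in J17b brains (edgeR log2 difference 0.26, SE 0.11, adjusted p = 0.818). Of 14 cytosolic heat shock genes 14 were positive, against 50.5% of all genes, with a median of 0.12. In 7 of them the J17a libraries lay above both J17b libraries, against 9.85% of all genes, and 2 passed an unadjusted p of 0.05 as higher, against 2.85%. The HSP40 gene Dnaja1 had 301, 344 and 307 CPM in J17a brains, against 288 and 244 CPM in J17b brains (edgeR log2 difference 0.26, SE 0.08, adjusted p = 0.634), and the nucleotide exchange factor Hsph1 had 333, 342 and 343 CPM in J17a brains, against 301 and 276 CPM in J17b brains (edgeR log2 difference 0.23, SE 0.08, adjusted p = 0.634). The J17a libraries lay above both J17b libraries for each of these 5 genes. Without J17b library 2, which leaves 1 library in J17b, the counts of both lists at an unadjusted p were lower. The endoplasmic reticulum count was 3 of 16 without J17a library 1 or without J17a library 3 and 7 of 16 without J17a library 2. The heat shock count was at most 4 of 14, without J17a library 2. Over all 16063 genes, 506, 422 and 404 passed as higher without J17a library 1, 2 or 3.

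Among 20 cholesterol synthesis genes, 16 were positive, against 50.5% of all genes, with a median of 0.10. The list summed to 1468, 1636 and 1627 CPM in J17a brains, against 1558 and 1369 CPM in J17b brains, and the groups overlapped. At an unadjusted p of 0.05, 3 passed as higher and 1 as lower in J17a brains, against 2.85% and 3.06% of all genes. The 3 that were higher encode enzymes of the pathway and were Cyp51 with a log2 difference of 0.29 (SE 0.10), Mvd with 0.49 (SE 0.21) and Pmvk with 0.41 (SE 0.19). The counts were 6 higher and 0 lower without J17a library 1, against 3.15% and 4.44% of all genes in that fit. They were 1 higher and 1 lower without J17a library 2, against 422 and 453 of 16063 genes. Leaving out either J17b library changed them too.

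Glucocorticoid targets had members in both directions. Of 12 genes, 5 were positive, and the members past an unadjusted p were Plin4, described above, and Sult1a1, lower in J17a brains, and Pdk4, higher. Sult1a1, a sulfotransferase, had 5.48, 6.30 and 4.43 CPM in J17a brains, against 8.78 and 9.14 CPM in J17b brains (edgeR log2 difference -0.73, SE 0.24, adjusted p = 0.634). Pdk4, which restrains pyruvate dehydrogenase, had 14.95, 18.4 and 15.3 CPM in J17a brains, against 11.6 and 13.3 CPM in J17b brains (edgeR log2 difference 0.39, SE 0.15, adjusted p = 0.748). The classical target Fkbp5 had 48.7, 52.5 and 42.3 CPM in J17a brains, against 62.1 and 48.2 CPM in J17b brains with overlapping groups. In the circadian clock, 8 of 16 genes were positive and 3 passed an unadjusted p, against 5.9% of all genes, Bhlhe40 with 0.34 (SE 0.10), Per3 with -0.27 (SE 0.10) and Ciart with -0.35 (SE 0.17). The clock count fell when either J17b library was left out, which leaves 1 library in J17b.

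In the insulin pathway 13 of 28 genes were positive, and 2 passed an unadjusted p of 0.05, against 5.9% of all genes. The insulin receptor Insr had 73.4, 82.9 and 76.7 CPM in J17a brains, against 90.5 and 90.9 CPM in J17b brains (edgeR log2 difference -0.22, SE 0.07, adjusted p = 0.634), with the J17a libraries below both J17b libraries. In thyroid hormone handling 2 of 13 genes passed, both higher in J17a brains. Dio2, the deiodinase that makes active hormone in astrocytes, had 98.1, 105 and 89.3 CPM in J17a brains, against 70.5 and 80.2 CPM in J17b brains (edgeR log2 difference 0.37, SE 0.11, adjusted p = 0.634), and the hormone transporter Slco1c1 had 50.3, 56.99 and 52.8 CPM in J17a brains, against 39.5 and 48.5 CPM in J17b brains (edgeR log2 difference 0.28, SE 0.12, adjusted p = 0.818). Neuronal splicing regulators gave 2 of 21, the RNA-binding proteins Khdrbs3 with 0.40 (SE 0.11) and Elavl2 with 0.27 (SE 0.11). The respiratory chain subunits gave 0 of 25, and their differences lay between -0.08 and 0.23. Without J17b library 1, which leaves 1 library in J17b, the insulin and respiratory chain counts rose and the thyroid hormone count fell. The count over all genes rose in that fit too. Without J17b library 2 the counts of the splicing regulators and of all genes fell.

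The label of brain tissue was checked against cell type markers. The neuronal, astrocyte, oligodendrocyte and microglial lists were detected in full, with no member at 0 in all 5 libraries. The summed level of the astrocyte list was 5684, 6857 and 6260.3 CPM in J17a brains, against 6288 and 6393 CPM in J17b brains, and that of the oligodendrocyte list 5849, 8197 and 7738 CPM in J17a brains, against 6521 and 7018 CPM in J17b brains. Microglial markers summed to 374, 415 and 399 CPM in J17a brains, against 375 and 381 CPM in J17b brains. The groups overlapped in each of these sums.

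Markers of brain regions varied between single libraries. Cerebellar neuron markers, 14 genes with 0 at 0, summed to 4096, 2495 and 2303 CPM in J17a brains, against 3279.7 and 4357 CPM in J17b brains. J17a library 1 thus lay between the J17b libraries, and J17a libraries 2 and 3 were lower than both. In the fit of all libraries 13 of 14 had a negative difference and 0 of 14 passed an unadjusted p, with a median of -0.44. Without J17a library 1, the median was -0.85 and 13 of 14 passed an unadjusted p as lower, against 4.44% of all genes in that fit. Without J17a library 3 or without J17b library 2, the median was -0.22 or -0.18. Striatal projection neuron markers summed to 1920.3, 1105 and 1067 CPM in J17a brains, against 1307 and 1099 CPM in J17b brains, with J17a library 1 the highest. Their differences were positive for 12 of 12 genes with a median of 0.17, and without J17a library 1 for 4 of 12 with a median of -0.12. Choroid plexus markers summed to 1111, 1363 and 1041 CPM in J17a brains, against 1061 and 2534 CPM in J17b brains, with J17b library 2 the highest, and Ttr, its most abundant transcript, had 549, 622 and 459.8 CPM in J17a brains, against 503 and 1399 CPM in J17b brains. Ependymal markers, of ciliated cells that line the ventricles, were low and summed to 19.7, 20.6 and 24.6 CPM in J17a brains, against 31.05 and 26.9 CPM in J17b brains, and 4 of 8 had J17a libraries below both J17b libraries, against 9.97% of all genes. An unadjusted p of 0.05 was passed by 2 of 8 as lower, against 3.06% of all genes, and by fewer when either J17b library was left out.

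Other genes were called when J17a library 1 was left out. In that fit edgeR called 2 genes (0.0125%), Reln, a secreted protein of cerebellar granule cells and cortical interneurons, at -0.71 (adjusted p = 0.0461) and Slc41a3, a magnesium transporter family member, at -0.92 (adjusted p = 0.0461). Reln had 194, 125 and 139 CPM in J17a brains, against 204 and 227 CPM in J17b brains, and Slc41a3 had 14.1, 8.49 and 7.96 CPM in J17a brains, against 15.7 and 15.3 CPM in J17b brains. J17a library 1 stood near the J17b libraries in both. In the fit of the 4 libraries with title numbers above 10, 35 genes were called (0.218% of 16057), 10 higher and 25 lower in J17a brains. They were led by Cbln1, which organises synapses of cerebellar granule cells, with 175, 83.5 and 90.4 CPM in J17a brains, against 158 and 189 CPM in J17b brains, a log2 difference of -0.999 in that fit (edgeR adjusted p = 0.000525). The Purkinje cell gene Pcp2 followed with 56.7, 20.7 and 26.3 CPM in J17a brains, against 47.7 and 50.5 CPM in J17b brains. Cbln3, En2, Zic1, Zic2, Calb1 and Ppp1r17 were also among the 25 lower genes. Cell make-up of the dissected pieces was not tested.

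**Figure D4:**
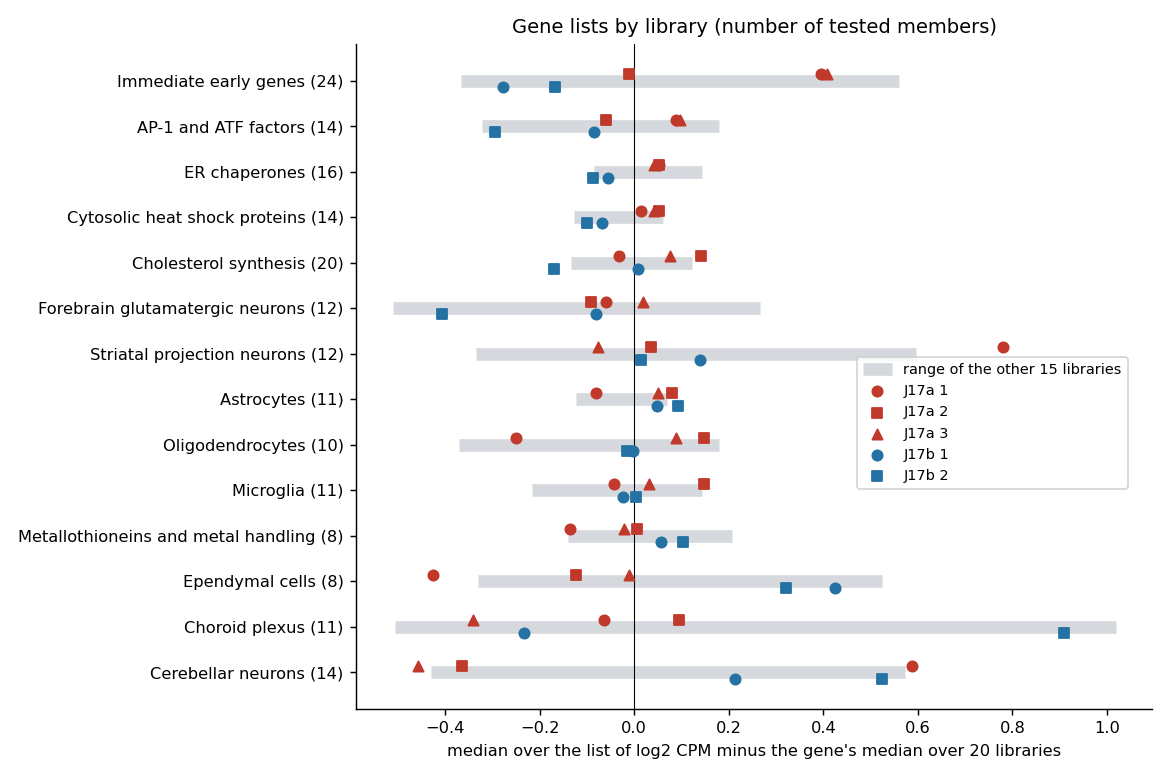
Gene lists (rows, number of tested genes in brackets) against the list's median of log2 CPM minus each gene's median over the 20 libraries (horizontal axis), with 1 point per J17a and J17b library. Immediate early genes lie at -0.28 and -0.17 in the J17b libraries, whereas for cerebellar neurons J17a library 1 at 0.59 stands with the J17b libraries at 0.21 and 0.52.

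The same contrast of 7a and 7b forms was available in the JNK2 lines, in which no library is shared with the JNK1 lines. J27a against J27b gave 0 genes at an adjusted p under 0.05 in edgeR (0%) and 930 at an unadjusted p (5.79%). Of the 30 ranked genes of the JNK1 lines, 12 had the same sign there, 6 of 15 higher and 6 of 15 lower genes, and 2 of these passed an unadjusted p of 0.05. Those were Fosl2, with a J27a minus J27b log2 difference of 0.30 (SE 0.13), and Nr4a3 with 0.53 (SE 0.19). With the opposite sign, 4 ranked genes passed an unadjusted p in the JNK2 lines, namely Ide with -0.34 (SE 0.09), Fmo2 with 0.72 (SE 0.28), Lpp with 0.28 (SE 0.13) and Rbm3 with 0.21 (SE 0.10). Mapk8 differed by 0.12 (SE 0.09) there. Over the 13089 genes with a mean log2 CPM of at least 1, the differences of the JNK1 and JNK2 lines had a Pearson r of -0.12 and a Spearman rho of -0.06, a description across genes, which are not independent replicates.

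The difference between the contrasts was tested as (J17a minus J17b) minus (J27a minus J27b). It passed an adjusted p of 0.05 for 1 gene, Ide (0.00623% of genes tested), and an unadjusted p for 1077 (6.7%). Ide was 0.58 higher on the log2 scale in J17a than in J17b brains, but J27a minus J27b was -0.34 (SE 0.09). The difference of differences was 0.92 (SE 0.14, edgeR adjusted p = 0.0267). Ide ranged from 82.7 to 88.3 CPM in J27a and from 106 to 112 CPM in J27b brains. Btaf1 differed by -0.18 (SE 0.10) in the JNK2 lines, and its difference of differences was 0.66 (SE 0.15, edgeR adjusted p = 0.321). In the same test 0 genes were called with the replicate number as a block, in limma, or without J17a library 2, J17a library 3 or J17b library 1.

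For the gene groups, both contrasts are given side by side, and the difference between the medians was not tested. Over all genes, 50.5% were positive in the JNK1 lines and 49.7% in the JNK2 lines. Immediate early genes had a median of 0.50 with 22 of 24 positive in the JNK1 lines, and 0.25 with 20 of 24 positive in the JNK2 lines. Heat shock genes had a median of 0.12 with 14 of 14 positive in the JNK1 lines, and -0.065 with 0 of 14 positive in the JNK2 lines. Cholesterol synthesis genes had 16 of 20 positive in the JNK1 and 2 of 20 in the JNK2 lines. For the metallothioneins J27a minus J27b was -0.03 (SE 0.12) for Mt1 and 0.07 (SE 0.16) for Mt2, with a difference of differences of -0.54 (edgeR adjusted p = 0.587) for Mt1. For Nes it was 0.78 (edgeR adjusted p = 0.321) and for Mapk8 0.39 (edgeR adjusted p = 0.564), none of which passed the threshold.

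**Figure D5:**
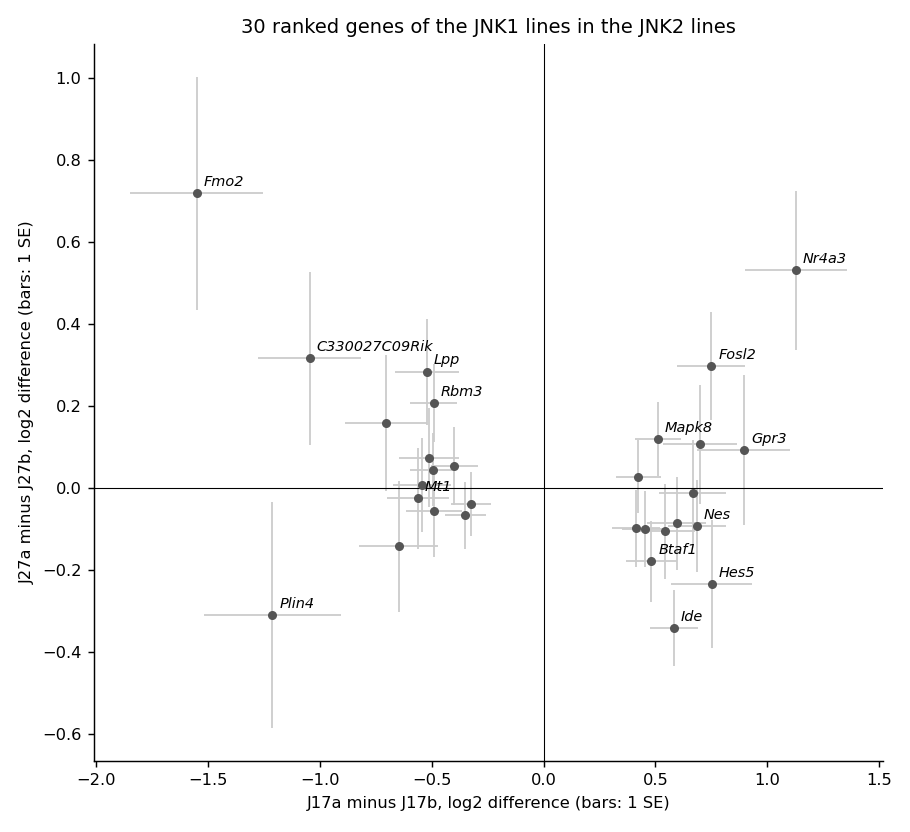
The 30 ranked genes with the log2 difference J17a minus J17b on the horizontal axis and J27a minus J27b on the vertical axis, with bars of 1 SE. Ide lies at 0.58 and -0.34, and Fosl2 and Nr4a3 are positive on both axes.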

How the data were processed

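RNA of mouse brain was extracted with a DNase step, enriched for poly(A) and sequenced as paired ends of 150 bases, per the labels' protocols. Cutadapt, RSEM and the build mm10 are named in the submitters' processing notes, while the versions, the gene annotation and the strand setting are not given in the sources used. The deposited estimated counts (expected counts per gene, not normalized) were rounded to whole numbers. The deposited TPM values, scaled by the authors to the same total per library, were used for levels per length and for limma.

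The 16063 genes kept by filterByExpr were fitted with edgeR 4.0.16 (R 4.3.3), with TMM scaling (factors 0.975 to 1.03), robust quasi-likelihood dispersions and a mean for each of 7 genotype groups over all 20 libraries. The contrast was J17a minus J17b, two-sided, with Benjamini-Hochberg adjustment over all tested genes. The common dispersion was 0.0144, a coefficient of variation of 0.12 between replicates. CPM values are counts scaled to library size with TMM factors. DESeq2 1.42.0 and limma 3.58.1 were alternatives, as were other scaling, no filter, the 5 libraries alone, the replicate number as a block, the title number as a term, Rn45s left out and each library left out in turn. The 2 against 2 comparison of title numbers above 10 was added after seeing the data. Figures were drawn with matplotlib 3.10.9 (Python 3.11.15). The fitting code was tested on simulated counts.

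Named genes are the 15 with the smallest p in each direction among genes with a mean log2 CPM of at least 1 and no overlap of libraries, genes called in an alternative that calls at most 20, the JNK genes with Ide, Btaf1 and Rn45s, and list members by an unadjusted p of 0.05. Genes named beyond this (such as Cbln1, Pcp2 and the chromosome 19 neighbours) were picked with their values already known. The comparison and the 48 gene lists (27 of pathways and 21 of cell types) were chosen with earlier results of these data known.

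Libraries within J17a and within J17b differed by more than counting noise (chi-square per degree of freedom 14.0 to 35.8). This does not show whether any of them came from the same animal. Intervals are not printed here. In the reported edgeR fit, the SE of a difference draws on the spread within the genotype groups of the whole series. It also depends on the number of libraries compared, 3 in J17a and 2 in J17b. Values of a few single members of the gene lists are not reported here.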

Additional observations from a re-analysis of the deposited data

Results flagged for a closer look

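Ide, the insulin-degrading enzyme, differed between the JNK1 and the JNK2 lines in the test of the difference itself. The difference of the 7a and 7b differences was 0.92 on the log2 scale (edgeR adjusted p = 0.0267). All 3 J17a libraries lay above both J17b libraries, which the ranking of Ide required, and all 3 J27a libraries lay below all 3 J27b libraries. The level also differed among lines outside these contrasts, since J1 lf/lf brains averaged 55.7 CPM, J2 lf/lf brains 101 CPM and wild-type brains 109 CPM. It varied within a line too, at 81.2, 111 and 110 CPM in the J2 lf/lf libraries. Btaf1 had 52.6, 74.3 and 68.9 CPM in the same libraries. The origin of these levels was not tested.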

How the results depend on the processing

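The 30 ranked genes kept their direction and an unadjusted p under 0.05 in each alternative, except without J17b replicate 2, where 29 kept their direction and p. They were picked by their p and separation in these same libraries, so the refits are no independent check of them. The count of genes called at an adjusted p, 0 in the reported fit, was 12 in DESeq2, 4 with only J17a and J17b in the fit, 2 with a term for the title number, 35 with title numbers above 10 only, and 0 to 2 when 1 library was left out. Replicate numbers are shared by 2 pairs, whose deviations correlated at -0.04 and 0.06. These values showed no pairing, but 2 pairs cannot settle whether the numbers pair the samples. With the replicate block 0 genes were called. For the difference between the JNK1 and JNK2 contrasts, 1 gene was called in the reported fit, 17 in DESeq2, 0 with the replicate block, 0 in limma at either pseudocount (1 or 0.1), 11 with a term for the title number, and 0 to 11 when a J17a or J17b library was left out, 11 without J17a replicate 1, 2 without J17b replicate 2 and 0 without any of the other 3. For Mapk8 the log2 difference was 0.51 in DESeq2 (adjusted p = 0.00701) and 0.53 with title numbers above 10 only (edgeR adjusted p = 0.0396), and it lay between 0.47 and 0.56 (edgeR adjusted p 0.178 to 1.00) when 1 library was left out. Among single named genes, 1521 results were on the same side of the threshold and 53 passed it only in an alternative; 0 reversed. The cause of these changes was not tested. The fits with 5 or 4 libraries also hold fewer samples. Without 1 J17b library, the remaining one is assumed to vary like the other groups. Depth, at 21761943 counts or more per library, limits mainly genes of a few CPM.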

Other observations

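In gene groups not described above, few members passed an unadjusted p of 0.05, which 5.9% of all genes passed. Of 25 cytosolic ribosomal protein genes, 22 were positive in J17a against J17b, against 50.5% of all genes, with a median log2 difference of 0.05. Relative to each gene's median over the 20 libraries, the list's median was 0.01, -0.04 and 0.01 in J17a brains, against -0.02 and -0.16 in J17b brains. The groups overlapped on that measure, though not in the list's sum, 4289, 4340 and 4334 CPM in J17a against 4257 and 4048 CPM in J17b brains. At an unadjusted p of 0.05 in edgeR 2 passed, Rps24 with 0.22 (SE 0.09) and Rps19 with 0.28 (SE 0.13). Of 12 interferon response genes, 6 were positive and 1 passed, Ifit1, an antiviral RNA-binding protein, with -0.74 (SE 0.23), lower in J17a brains. Of 24 glutamate receptor and scaffold genes 15 were positive and Homer1 alone passed, and of 15 GABA receptor subunits 9 were positive and 0 passed. Of 12 genes of the BCL2 family and p53, the survival factor Bcl2 alone passed, with 0.26 (SE 0.11). Leaving out J17a library 1 gave 4 of 24 glutamate receptor and 2 of 15 GABA receptor genes, against 1219 of 16063 genes in that fit. The ribosomal and glutamate receptor counts rose without J17b library 1, as did the count over all genes. Without J17b library 2 the ribosomal and BCL2 family counts and the count over all genes fell, and the interferon count rose.

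Cholinergic markers gave 2 of 7 at an unadjusted p, both higher in J17a brains, against 2.85% of all genes, among them the vesicular acetylcholine transporter Slc18a3 with 0.67 (SE 0.29). The cholinergic count was 0 of 7 without J17a library 1 and 4 of 7 without J17a library 2. As higher, 506 and 422 of 16063 genes passed in those fits. The cholinergic count was also lower when either J17b library was left out. Of 12 markers of forebrain glutamatergic neurons, 11 were positive, against 50.5% of all genes, with a median of 0.17, and 3 passed as higher. These were Neurod6, Nrn1 and Fezf2 with 0.47 (SE 0.14), 0.24 (SE 0.09) and 0.68 (SE 0.27), and fewer passed without J17b library 2. Hindbrain Hox genes followed single libraries, summing to 3.16, 11.6 and 46.9 CPM in J17a brains, against 30.9 and 6.46 CPM in J17b brains. Anterior pituitary markers summed to 21.9, 0.479 and 1.48 CPM in J17a brains, against 3.66 and 16.2 CPM in J17b brains, with Pou1f1 at 0 in all 5 libraries.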
